A study of Mus musculus with 9 samples.

Results

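The 2'-5'-oligoadenylate synthetase (Oas) family of the mouse was followed in CD11b+ bone marrow cells by taking 8 genes by name, Oas1a, Oas1b, Oas1c, Oas1g, Oas2, Oas3, Oasl1 and Oasl2, from the 23337 genes counted in each library. All 8 members passed the filter on low counts, as did 12553 genes in all. The rule took them by name and used no cutoff on their values, although earlier results of these data were known when the family was picked. The study asked how extracellular vesicles (EVs) of prostate cancer cells change bone marrow myeloid cells, and whether HDL NPs alter that change. Stranded total RNA-seq was run on 9 libraries, 1 per mouse, from young male C57BL/6 mice. CD11b+ cells, a myeloid fraction isolated with magnetic beads, were taken 24 h after the last injection. All 3 groups held 3 mice and were injected by the tail vein with 100 µl on days 1, 3 and 5.

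PBS mice received the buffer alone. EnzR EV mice received, per injection, 10 µg of EV protein from CWR-R1 cells, a human prostate cancer line grown to resist the androgen receptor blocker enzalutamide. Mice of the EnzR EVs + HDL NPs group received those EVs and, on days 0, 2 and 4, also HDL NPs, gold-core particles coated with apolipoprotein A-1 and phospholipid that mimic high-density lipoprotein. The labels give 1 µM for the HDL NPs, whereas the methods of the study give a higher concentration. No sequenced group received HDL NPs alone or EVs from another cell, so HDL NPs were seen only on top of the EVs. No injection on days 0, 2 and 4 is recorded for the other groups. HDL NPs and the added injections therefore cannot be told apart.

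Oas enzymes sense double-stranded RNA in the cytoplasm and, once bound to it, join ATP into short 2'-5'-linked oligoadenylates. These messengers set off the breakdown of viral and cellular RNA and so slow protein synthesis. The genes belong to the classical interferon-stimulated genes: type I and type III interferons act through a complex that includes STAT2 and IRF9 and that binds an interferon-stimulated response element, a repeated GAAA motif near the start of such genes. Myeloid cells express the family at rest and raise it in viral infection.

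All 8 members lie on chromosome 5 in the mouse genome build GRCm38, the assembly also called mm10. The annotated genes Oas2 (chr5:120730333-120749853, minus strand), Oas3 (chr5:120753098-120777661, minus), Oas1c (chr5:120800194-120812514, minus), Oas1b (chr5:120812635-120824163, plus), Oas1g (chr5:120876142-120887613, minus) and Oas1a (chr5:120896256-120907521, minus) form a cluster of 177.2 kb. Oasl2 (chr5:114896936-114912234, plus) and Oasl1 (chr5:114923240-114937915, plus) sit side by side elsewhere on that chromosome, within 40.98 kb. These coordinates are from GENCODE M21, whereas the counts were made per gene with HTSeq on a UCSC annotation of mm10. Exon lengths used below to scale levels are also from GENCODE, so they may differ from the exons that were counted.

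Start-site sequences are shown first because the members share an inducer and because 4 of the 6 windows held the same short motif. RefSeq windows on GRCm38, from 250 bases before to 50 bases after an annotated start, were matched by symbol for 6 of the 8 members. Oas2 and Oas1b had no entry. Both strands were searched for GAAANNGAAA, the core of an interferon-stimulated response element, for the longer GAAANNGAAACT, which contains it, and for TTCNNNGAA, the palindrome bound by STAT dimers. The 150 bases upstream of the start are printed from 5' to 3' for Oas1a (chr5:120907526-120907675, minus strand), Oas1g (chr5:120887614-120887763, minus) and Oas3 (chr5:120777660-120777809, minus), together with the 120 bases between the starts of Oas1c and Oas1b (chr5:120812515-120812634, plus strand). Capitals mark GAAANNGAAA, including overlapping copies.
Oas1a: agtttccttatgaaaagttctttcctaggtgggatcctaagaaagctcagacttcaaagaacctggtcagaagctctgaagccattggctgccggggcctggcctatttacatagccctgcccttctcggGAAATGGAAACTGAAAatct
Oas1g: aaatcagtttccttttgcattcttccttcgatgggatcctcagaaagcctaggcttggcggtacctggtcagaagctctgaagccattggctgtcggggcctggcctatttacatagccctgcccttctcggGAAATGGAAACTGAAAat
Oas3: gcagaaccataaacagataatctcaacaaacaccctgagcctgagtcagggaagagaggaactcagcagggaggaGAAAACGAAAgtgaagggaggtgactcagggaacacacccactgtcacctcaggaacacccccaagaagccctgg
Oas1c-Oas1b: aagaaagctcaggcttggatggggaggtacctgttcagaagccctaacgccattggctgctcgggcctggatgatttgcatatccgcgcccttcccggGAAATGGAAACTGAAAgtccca

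The motif ended 5 bases before the start of Oas1a and 3 bases before that of Oas1g, and in Oas3 it lay from 75 to 66 bases upstream. In the Oas1c window it stood on the other strand, from 114 to 99 bases upstream. Oas1c and Oas1b are transcribed away from each other, and that copy reads in the direction of Oas1b, from 22 to 7 bases before the annotated start of Oas1b. GAAANNGAAA was present in 4 of the 6 windows, against 3.44% of all 32851 windows of this length, and GAAANNGAAACT in 3 of the 6, against 0.271%. TTCNNNGAA was present in 1 of the 6, that of Oas1a, against 8.3%. The windows of Oas1a, Oas1g and Oas1c held an identical stretch of 19 bases, CGGGAAATGGAAACTGAAA, which was found in no other window of the 32851. Oas1a and Oas1g shared 56 identical bases across it. These matches describe letters in the windows and were not measured as binding. Oasl1 and Oasl2 held none of the 3 motifs in these windows.

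**Figure D1:**
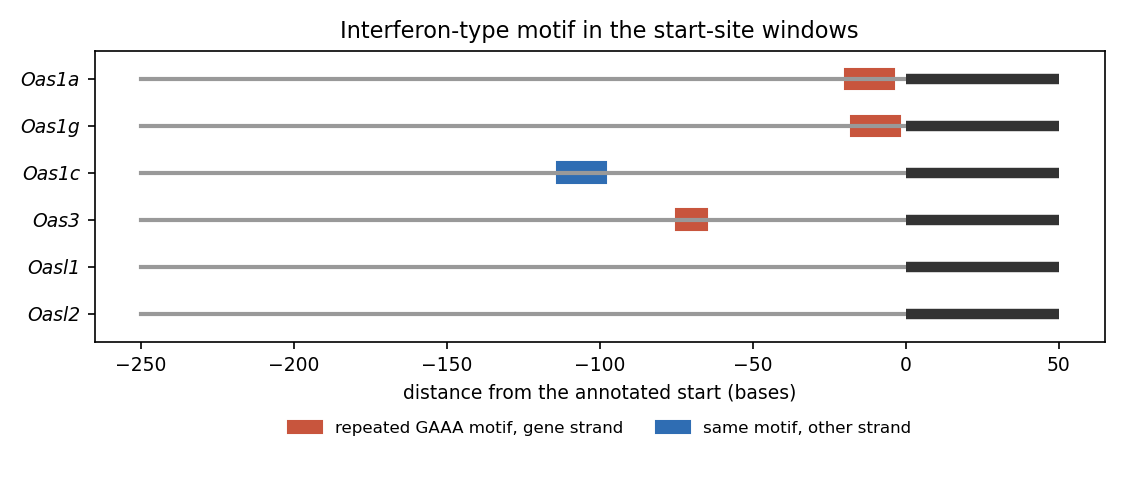
Position of GAAANNGAAA in the start-site windows of the 6 members with an entry. The horizontal axis is the distance from the annotated start in bases, the thick bar is the 50 bases after it, and colour gives the strand. The motif lay within the last 20 bases before the start in Oas1a and Oas1g, lay further upstream in Oas3 and stood on the opposite strand in Oas1c.

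Similarity between copies limits what the counts can separate. Of the 75-base stretches in the annotated transcripts of Oas1a, 47.6% occurred identically in Oas1g, and 36.9% of those of Oas1g occurred in Oas1a. For Oas1c the share was 1.5%, with the scarce copies Oas1d, Oas1e and Oas1f, and for Oas1b, Oas2, Oas3, Oasl1 and Oasl2 it was 0%. The values of Oas1a and Oas1g are therefore uncertain as separate genes, since reads were 75 bases long and the handling of reads with several matches is not given in the sources used here.

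Library totals ranged from 2575776 to 18110561 counts. Rn45s, the ribosomal RNA precursor, took 20.3% of the counts in PBS replicate 1, 42.7% in EnzR EVs replicate 1 and 14.2% in EnzR EVs replicate 3, against 0.657% to 2.87% in the other 6 libraries. EnzR EVs replicate 1 had the lowest total and PBS replicate 1 the next. These libraries bear on every comparison below, so the median over the members is also given without them. Levels are CPM scaled by the TMM factors (TMM CPM), counts relative to the size of the library, on which a floor of 3 counts corresponded to between 0.16 and 1.65. Genes were tested by edgeR's quasi-likelihood test on all 9 libraries, with a Benjamini-Hochberg adjusted p under 0.05 as the threshold. In none of the comparisons did any of the 12553 genes pass it, so directions below describe these mice and were not called. At an unadjusted p under 0.05, in either direction, edgeR had 3.47% of the genes for EnzR EVs against PBS, 2.13% for EnzR EVs + HDL NPs against PBS, 10.6% between the EV groups and 2.17% for the mean of both EV groups against PBS. In bulk samples such as these, a change in the number of cells of a type and a change of RNA per cell cannot be told apart.

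Oas1a, an active synthetase of the Oas1 group, was measured at 13.4, 19.7 and 17.7 TMM CPM in the 3 PBS mice. It reached 13.2, 51.4 and 30.0 in the EnzR EV mice, and 32.4, 29.2 and 28.5 with HDL NPs. Mouse 1 of the EnzR EV group lay below all PBS mice and the other 2 above all of them, whereas the HDL NP group did not overlap with PBS. Oas1g, the near-copy of Oas1a, was much scarcer, at 0.880, 2.65 and 1.32 in PBS mice. Its values were 2.19, 8.73 and 5.91 with EnzR EVs and 3.15, 4.29 and 3.21 with HDL NPs. Only the PBS mouse at 2.65 kept the EnzR EV group from separating fully, and all 3 mice of the HDL NP group lay above PBS. The lowest Oas1g values rested on 5 counts in PBS replicate 1 and 4 counts in EnzR EVs replicate 1.

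Oas1b is the flavivirus resistance gene of the mouse. GENCODE lists it as a polymorphic pseudogene, and C57BL/6 is known to carry the allele with a premature stop, so its RNA is not expected to give the full protein. It was detected in every library, at 2.64, 4.83 and 5.43 TMM CPM in PBS mice. EnzR EV mice had 1.65, 8.99 and 8.75, and mice that also received HDL NPs had 9.34, 10.7 and 11.1. The HDL NP group lay above both other groups without overlap, and the lowest EnzR EV value rested on 3 counts. Oas1c, the divergently transcribed neighbour of Oas1b, was measured at 1.76, 6.15 and 6.24 in PBS mice. It stood at 0.549, 6.76 and 3.43 with EnzR EVs, the first of these from a single count, and at 8.56, 9.36 and 6.36 with HDL NPs. EnzR EV and PBS mice were interleaved for Oas1c, and the HDL NP group cleared the highest PBS mouse by a narrow margin.

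Oas2 and Oas3 encode the larger enzymes, built from more than 1 synthetase unit, and Oas3 binds long double-stranded RNA. Oas2 was measured at 31.0, 52.1 and 49.0 TMM CPM in PBS mice. With EnzR EVs the values were 35.1, 120.5 and 85.8, and with HDL NPs 92.1, 100.6 and 110.4. EnzR EVs replicate 1 fell inside the PBS range, and every mouse of the HDL NP group had a higher level than any PBS mouse. Oas3, the most abundant member, was at 141.2, 162.3 and 137.1 in PBS mice. It was at 192.6, 320.2 and 276.7 with EnzR EVs and at 206.4, 225.8 and 248.5 with HDL NPs. For Oas3 all 6 EV-treated mice lay above all 3 PBS mice, including the library richest in Rn45s.

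Oasl1 and Oasl2 encode synthetase-like proteins with ubiquitin-like repeats. Mouse OASL1 makes no oligoadenylates and holds back translation of Irf7, whereas OASL2 has kept the enzyme activity. Oasl1 was measured at 6.34, 8.80 and 10.2 TMM CPM in PBS mice, at 5.49, 31.3 and 12.5 with EnzR EVs and at 21.5, 18.2 and 23.8 with HDL NPs. The EnzR EV mice spanned the widest range of the 3 groups, from below every PBS mouse to above every mouse with HDL NPs. Oasl2 was at 57.6, 78.9 and 64.5 in PBS mice, at 66.4, 195.7 and 170.6 with EnzR EVs and at 145.7, 116.4 and 166.0 with HDL NPs. Again 2 of the 3 EnzR EV mice and all 3 mice of the HDL NP group exceeded every PBS mouse.

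**Figure D2:**
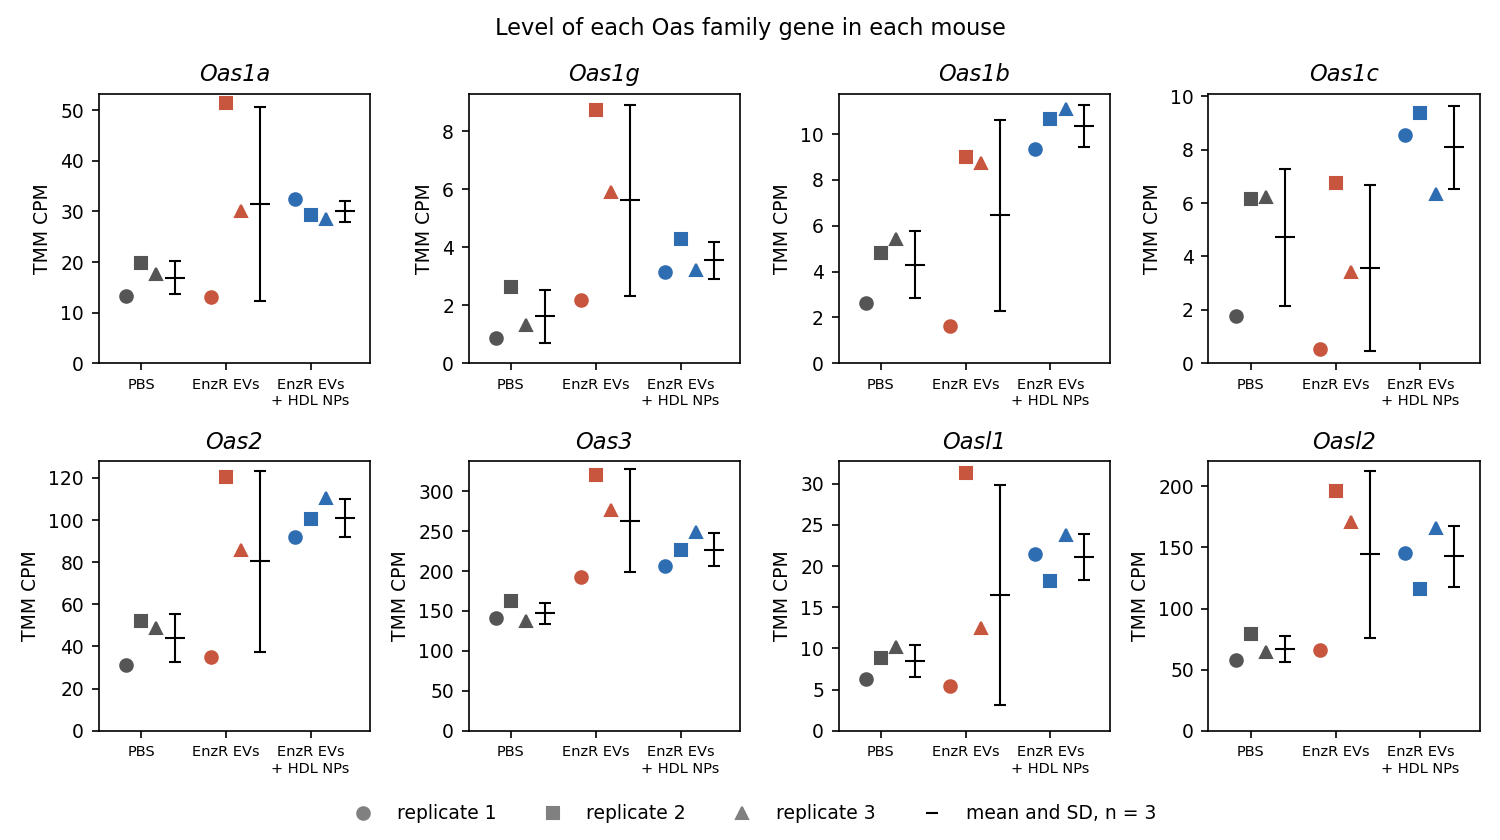
Level of each member in each mouse, in TMM CPM on a linear axis from 0, with 1 panel per gene. Symbols give the replicate number within a group, with no pairing across groups assumed, and the bars give the mean and SD of 3 mice. In every panel the 3 mice of the EnzR EVs + HDL NPs group lay above the PBS mice, while EnzR EVs replicate 1 was within or below the PBS range for all members but Oas3.

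Per kilobase of annotated exon, the PBS levels ordered the family as Oas3 at 31.1 ± 2.87 TMM CPM per kb (SD, n = 3), Oasl2 at 21.4 ± 3.48, Oas2 at 11.1 ± 2.87, Oas1a at 8.99 ± 1.72, Oasl1 at 3.83 ± 0.884, Oas1b at 2.34 ± 0.799, Oas1c at 2.06 ± 1.12 and Oas1g at 0.816 ± 0.465. Oas3 and Oasl2 did not overlap with each other or with any member below them. Ranges over the PBS mice overlapped between Oas2 and Oas1a, between Oasl1 and Oas1b, between Oas1b and Oas1c and between Oas1c and Oas1g. The order of the means was the same with HDL NPs, where Oas3 stood at 48.1 ± 4.46 and Oas1g at 1.80 ± 0.324. In the EnzR EV group Oas1g, at 2.84 ± 1.66, and Oas1c, at 1.56 ± 1.36, changed places, within overlapping ranges. Oas3 held 35.2% to 43.5% of the family's length-scaled signal in PBS mice, 31.6% to 49.4% with EnzR EVs and 29.0% to 32.7% with HDL NPs. The share of Oas2 was 11.4% to 15.0%, 10.7% to 14.2% and 15.4% to 17.4%. With HDL NPs the range of Oas3 thus lay below that of PBS mice and the range of Oas2 above it, whereas with EnzR EVs both overlapped with PBS. The remaining Oas1 copies were close to absent: Oas1d and Oas1f had 0 counts in all 9 libraries, and Oas1e and Oas1h had at most 4 counts in any library, so none was tested.

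Comparing EnzR EVs with PBS addressed what the EVs alone changed. The fitted level was higher in 7 of the 8 members, with a median log2 fold change of 0.92 against -0.027 over all genes tested, and 46.5% of all genes had a value above 0. Largest was Oas1g at 1.85 (SE 0.47), followed by Oasl2 at 1.12 (SE 0.33), Oasl1 at 1.05 (SE 0.45), Oas1a at 0.95 (SE 0.36), Oas2 at 0.89 (SE 0.36), Oas3 at 0.85 (SE 0.20) and Oas1b at 0.71 (SE 0.41). Oas1c was the exception, at -0.20 (95% interval -1.39 to 1.00). By edgeR 0 of the 8 members passed the threshold (0% of all genes did), with an adjusted p of 0.928 for all but Oas1c, at 0.964. Without adjustment, 6 members were higher at a p under 0.05, against 1.55% of all genes. Oas3 had the smallest of these, at an edgeR p of 0.0014, and ranked 13 among the 12553 genes. It was also the 1 member whose EnzR EV mice did not overlap with PBS mice, a separation that 3.43% of all genes had in this direction. The exact permutation p of Oas3 was 0.10, two-sided, the smallest that 3 mice against 3 can give, and the other members ranged from 0.20 to 0.70.

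Of all single libraries left out, EnzR EVs replicate 1 moved the median over the members furthest upward, to 1.24, and EnzR EVs replicate 2 furthest downward, to 0.51. Without the latter, Oasl1 was at 0.23 and Oas1c at -0.91. DESeq2 and limma voom called 0 of the 8 members, against 8 genes (0.0567%) and 0 genes, and 6 were called by limma voom with quality weights, which give less weight to deviating libraries and called 15.9% of all genes. Leaving out the 3 libraries with over 10% Rn45s, a choice made after seeing the data, left 1 mouse in the EnzR EV group and called Oas1a, Oas2, Oasl1 and Oasl2 among 10 genes in all (0.0773%), with a median over the members of 1.36. That fit assumes that the lone mouse varies like the other groups. Dropping the shallowest 2, EnzR EVs replicate 1 and PBS replicate 1, likewise decided after seeing the data, called 1 member, Oasl2, at an edgeR adjusted p of 0.0408, among 5 genes in all (0.0397%), with a median of 1.09.

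EnzR EVs + HDL NPs against PBS, the comparison of both agents with the buffer, gave the most even pattern. The HDL NP group was also the only group without a library over 10% Rn45s. The part of library quality in this evenness was not tested. All 8 members were higher, with a median log2 fold change of 1.07 against -0.0072 over all genes, and 48.9% of all genes had a value above 0. For all 8 the 3 treated mice lay above the 3 PBS mice, a separation in this direction that 6.96% of all genes showed. Oasl1 differed by 1.30 (SE 0.44), Oas1b by 1.22 (SE 0.40), Oas2 by 1.19 (SE 0.36), Oasl2 by 1.09 (SE 0.33), Oas1g by 1.05 (SE 0.47), Oas1a by 0.81 (SE 0.36), Oas1c by 0.71 (SE 0.51) and Oas3 by 0.63 (SE 0.20). No member passed the edgeR threshold (0% of all genes), with an adjusted p of 1.00 for each. Without adjustment, 7 members were higher at a p under 0.05, against 1.02% of all genes, and Oas1c, at an edgeR p of 0.190, was not among them. Each member's exact permutation p was 0.10, two-sided, the smallest possible here. DESeq2 called 0 members and 7 genes (0.0604%), limma voom 0 and 0, and limma voom with quality weights 1 member, Oas2, at an adjusted p of 0.0467, among 10 genes (0.0797%). The median stayed between 0.92 and 1.27 as each library was left out in turn, and was 0.92 both without the libraries over 10% Rn45s and without the shallowest 2.

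**Figure D3:**
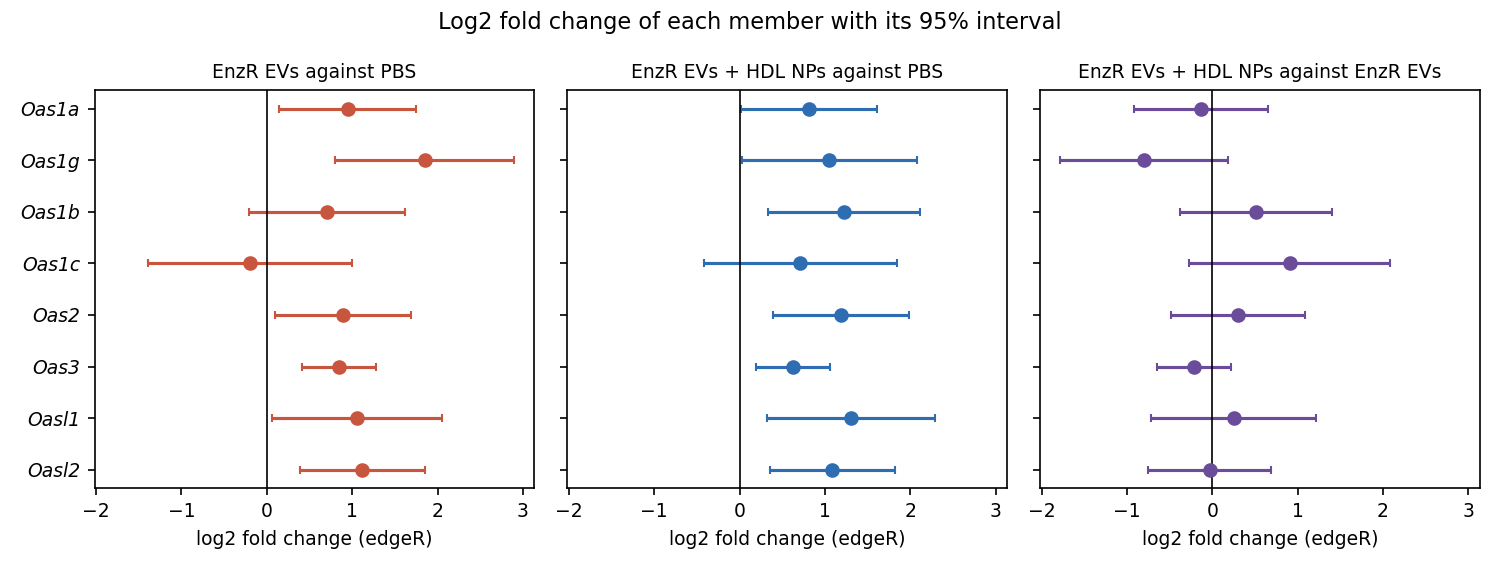
Log2 fold change of each member from edgeR, with its 95% interval, in the 3 comparisons between groups. The first 2 panels share the PBS mice. Against PBS the points lay above 0 except for Oas1c with EnzR EVs, and all 8 intervals included 0 between the EV groups.

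Setting EnzR EVs + HDL NPs against EnzR EVs asked what HDL NPs, together with their added injections, changed in mice that had received EVs. The members were split, 4 higher and 4 lower, with a median of 0.11 against 0.033 over all genes, of which 52.8% had a value above 0. On the higher side were Oas1c at 0.91 (95% interval -0.27 to 2.09), Oas1b at 0.51 (-0.37 to 1.40), Oas2 at 0.30 (-0.48 to 1.09) and Oasl1 at 0.25 (-0.71 to 1.22). On the lower side were Oas1g at -0.80 (-1.78 to 0.19), Oas3 at -0.22 (-0.65 to 0.21), Oas1a at -0.13 (-0.92 to 0.65) and Oasl2 at -0.03 (-0.75 to 0.69). By edgeR 0 members were called (0% of all genes), with adjusted p from 0.483 to 0.974, and 0 had an unadjusted p under 0.05 in either direction, against 10.6% of all genes (3.58% higher). DESeq2, which called 1 gene (0.00532%), limma voom, which called 0, and limma voom with quality weights, which called 653 (5.2%), also called 0 members. The interval of each member reached at least 0.65 on the log2 scale on 1 side of 0, so these intervals include differences of that size as well as 0. Oas1b alone did not overlap between the groups, higher with HDL NPs (8.99% of all genes did so), with an exact permutation p of 0.10. Without EnzR EVs replicate 1, 2 members were higher with HDL NPs and the median was -0.22. Without EnzR EVs replicate 2, 6 were higher and the median was 0.52, with Oasl1 at 1.07 and Oas1c at 1.62. Without the 3 libraries over 10% Rn45s, which again leaves 1 EnzR EV mouse, 2 were higher and the median was -0.48, and without the shallowest 2 libraries it was -0.23.

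Taking the mean of both EV-treated groups against PBS used all 9 mice. All 8 members were higher, by a median of 1.00 against -0.010 over all genes, of which 47.6% had a value above 0. Of the members, 7 were higher at an unadjusted edgeR p under 0.05, against 0.765% of all genes. Oas3, at 0.74 (SE 0.17), had no overlap between 6 treated and 3 PBS mice, which 0.701% of all genes showed in this direction. Its exact permutation p was 0.024, two-sided, the smallest that 6 against 3 can give, and was not adjusted over genes. For Oas1g, at 1.45, and Oasl2, at 1.10, the exact permutation p was 0.048, and Oas1c, at 0.26, had 0.833. edgeR and limma voom called 0 members (0% of all genes), with an edgeR adjusted p of 1.00 for each. DESeq2 called Oas3 at an adjusted p of 0.0305, among 14 genes (0.11%), and limma voom with quality weights called 6 members among 86 genes (0.685%). By edgeR, 4 members were called among 14 genes (0.108%) without the 3 libraries with over 10% Rn45s, and 1 member among 5 genes (0.0397%) without the shallowest 2. The medians over the members were then 1.10 and 0.97.

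The mice differed within groups along the whole family. EnzR EVs replicate 2 was the highest of the 9 mice for 6 members, whereas EnzR EVs replicate 1 was the lowest for 4 and PBS replicate 1 for 3. Counted from the lowest of the 9 mice, EnzR EVs replicate 1 held ranks 1 to 4. Mean log2 CPM over the 8 members was 3.36, 4.16 and 4.00 in PBS mice, 3.32, 5.33 and 4.77 with EnzR EVs and 4.87, 4.91 and 4.94 with HDL NPs. The HDL NP mice were the most alike of the 3 groups, and theirs was the only group without a library over 10% Rn45s. The 2 lowest family levels belonged to the 2 libraries with the highest Rn45s shares, whereas EnzR EVs replicate 3, with 14.2% Rn45s, had a family level of 4.77. The part of ribosomal RNA and depth in these levels was not tested. Within the 6 libraries under 10% Rn45s, a cut made after seeing the data, the 2 PBS mice were at 4.16 and 4.00. EnzR EVs replicate 2, the only mouse of its group among them, was at 5.33. The HDL NP mice were at 4.87, 4.91 and 4.94. How many of all genes differed in the same way was not counted.

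**Figure D4:**
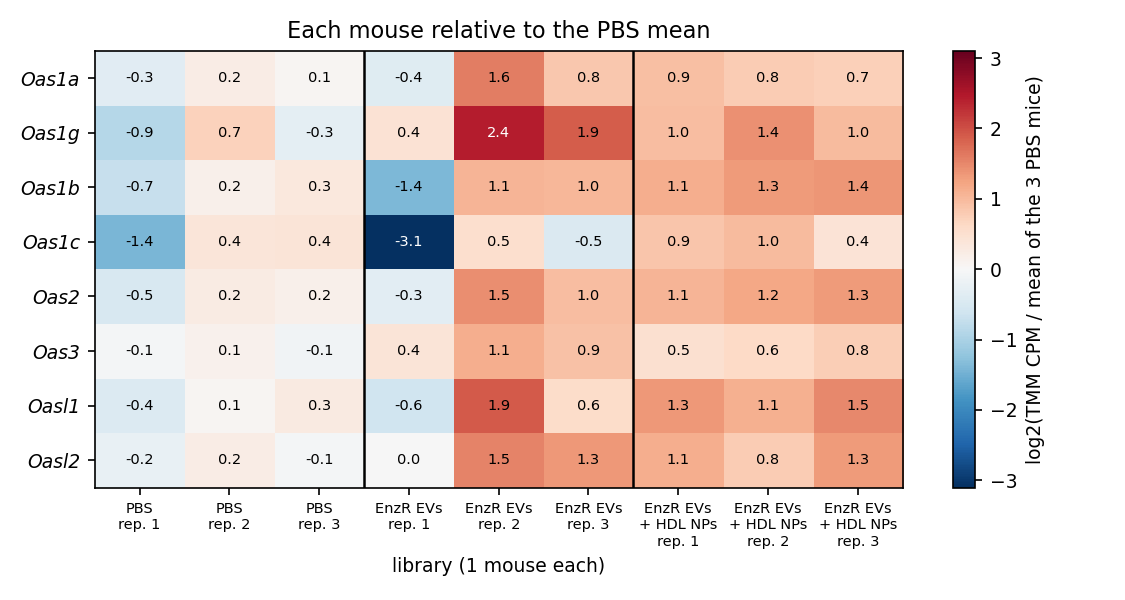
Level of each member in each mouse relative to the mean of the 3 PBS mice, on a log2 scale, with 1 column per library and vertical lines between groups. Red is above the PBS mean and blue below it. EnzR EVs replicate 1 was blue or near white for 6 of the members, with the darkest cell, Oas1c, resting on 1 count, and all 3 HDL NP columns were red throughout.

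**Figure D5:**
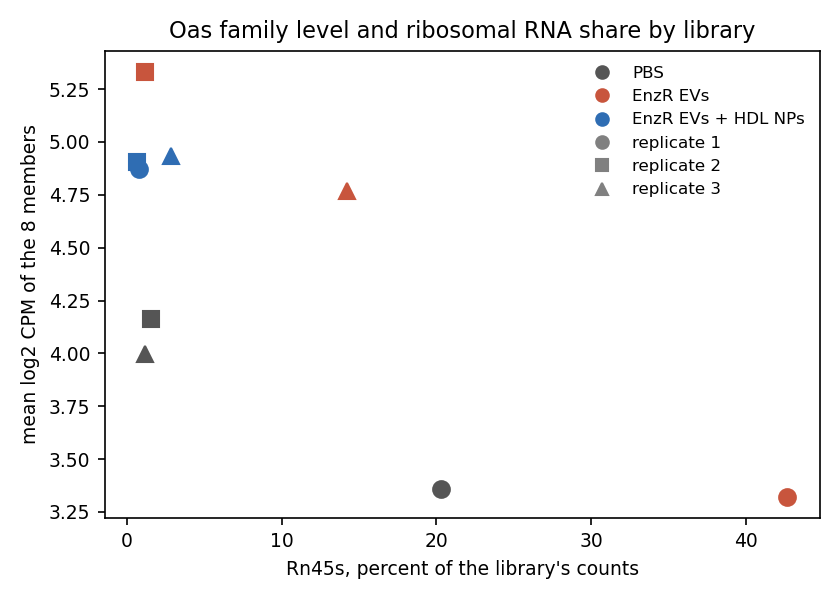
Mean log2 CPM of the 8 members in each library against the share of its counts on Rn45s, in percent. Colour gives the group and symbol the replicate. The libraries at 20.3% and 42.7% Rn45s had the lowest family levels, 3.36 and 3.32.

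Across the 9 libraries the members moved together to different degrees. Pearson's r between a member and the mean of the others, on log2 CPM, was 0.986 for Oas2, 0.966 for Oas1a, 0.944 for Oasl1, 0.921 for Oas1b and 0.910 for Oasl2. It was lower for Oas1g at 0.778, Oas3 at 0.760 and Oas1c at 0.676. These values describe libraries that also share group, depth and Rn45s share. Of all other genes tested, the 5 whose log2 CPM was most like the family mean were Usp18 (r = 0.978), the deconjugase of ISG15, Slfn4 (0.977), a Schlafen gene of myeloid cells, Parp10 (0.975) and Parp12 (0.969), mono-ADP-ribosyltransferases, and Rtp4 (0.971), a receptor transporter. Ranked by Spearman's rho instead, only Slfn4 stayed among the first 5. Slfn4 ran from 751.8 TMM CPM in EnzR EVs replicate 1 to 2102 in EnzR EVs replicate 2, the pair of mice that also bounded Oas1a and Oasl1.

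The rest of the pathway was followed through 20 listed genes for the handling of the oligoadenylates, other RNA sensors and the interferon relay, of which 18 were in the counts and all 18 were tested. With EnzR EVs, 13 of the 18 were higher and 5 lower, at a median of 0.22 (46.5% of all genes were higher), and 0 had an unadjusted edgeR p under 0.05. With HDL NPs added, 16 were higher than in PBS mice, at a median of 0.58, against 48.9% of all genes. Of these, 4 had an unadjusted p under 0.05, against 1.02% of all genes, and 11 did not overlap with PBS, against 6.96%. No gene of the list passed the edgeR threshold in any comparison.

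Among sensors against PBS, Ddx58, which encodes RIG-I, differed by 0.29 with EnzR EVs and 0.76 with HDL NPs added. Ifih1, which encodes MDA5, differed by 0.31 and 0.91, and Eif2ak2, which encodes the kinase PKR, by 0.26 and 0.70. Not all listed genes were higher in both: Tlr3 was at -0.34 and 0.03, and Adar at -0.04 and 0.49. In the relay, Stat2 differed by 0.20 and 0.72, Irf9 by 0.20 and 0.68 and Irf7 by 0.51 and 0.85. The receptor genes Ifnar1, at 0.08 and -0.03, and Ifnar2, at -0.02 and 0.02, lay near 0, as did Abce1, an ATP-binding cassette protein of ribosome recycling, at -0.07 and 0.07. Pde12, which degrades oligoadenylates, was at 0.35 and 0.11, and the adaptor Mavs at -0.11 and -0.32. Directly between the EV groups, 14 of the 18 were higher with HDL NPs at a median of 0.39, against 52.8% of all genes. Stat2, at 0.53, was the 1 gene of these with an unadjusted edgeR p under 0.05, against 3.58% of all genes.

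Of 8 other interferon-stimulated genes listed for reference, 7 were higher than in PBS mice with EnzR EVs, at a median of 0.95, and 8 with HDL NPs added, at a median of 0.92. Ifit1, which binds foreign RNA caps, differed from PBS by 2.04 with EnzR EVs, the largest value of the list, at an edgeR adjusted p of 0.200, and by 1.15 with HDL NPs added. Rsad2, which encodes viperin, differed by 1.12 and 0.99. Mx1 was at 0.01 and 0.85, and Mx2 at -0.24 and 0.84. Both Mx genes were thus near or below 0 with EnzR EVs alone, as Oas1c was. Ifit3 differed by 1.10 and 1.67, Isg15 by 1.22 and 0.80, Usp18 by 0.80 and 1.02 and Cmpk2 by 0.48 and 0.43. Between the EV groups, 4 of the 8 were higher with HDL NPs and 4 lower, at a median of 0.089 (52.8% of all genes were higher). Ifit1 was lower, at -0.90, and Mx1, at 0.84, and Mx2, at 1.08, were higher, each without overlap between the groups. Of all genes, 8.99% were higher without overlap, and the share lower without overlap was not counted. Ifit1, Mx1 and Mx2 each had an unadjusted edgeR p under 0.05, against 10.6% of all genes, and none passed the edgeR threshold.

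Markers of the cells were summed per mouse to show what else differed. Neutrophil genes had the largest sums of these lists, and such sums do not give the numbers of cells. The 9 of 10 listed genes that were counted summed to 41771 to 96029 TMM CPM in PBS mice. The sums were 22116 to 105380 with EnzR EVs and 64315 to 126155 with HDL NPs. Of these genes, 6 were lower than in PBS mice with EnzR EVs and 4 with HDL NPs. Monocyte genes (6 of 6) stood at 1977 to 2175, 1269 to 2268 and 1703 to 2449, with 5 and 3 of them lower. Macrophage genes were lower in the EV-treated mice, in 7 of the 8 measured with EnzR EVs and in 8 of 8 with HDL NPs, with sums of 572.2 to 990.9, 444.8 to 614.0 and 463.1 to 620.1. Genes of plasmacytoid dendritic cells, known as strong interferon producers, were low, at 2.99 to 7.57, 1.18 to 9.33 and 2.32 to 4.78. B cell genes were lower in 6 of 6 in both comparisons with PBS and summed to 15.5 to 22.1, 8.94 to 20.3 and 7.54 to 20.4, and T and NK cell genes, lower in 4 of 5 tested with EnzR EVs and 5 of 5 with HDL NPs, to 50.2 to 62.5, 53.9 to 80.7 and 31.6 to 57.1. Erythroid genes, lower in 3 of 3 tested in both, summed to 18.3 to 26.3, 8.75 to 19.8 and 9.99 to 34.7, with Hba-a1 at 0 in all libraries, and platelet genes, lower in 4 of 5 with EnzR EVs and 5 of 5 with HDL NPs, to 24.8 to 99.9, 30.1 to 70.9 and 35.9 to 52.5. Neutrophil and monocyte genes thus led these sums in every library, which fits the CD11b label. Of all genes tested, 46.5% were higher with EnzR EVs than with PBS and 48.9% with HDL NPs added. The part of cell makeup in the Oas values was not tested.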

How the data were processed

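CD11b+ bone marrow RNA of 9 mice was sequenced as stranded, rRNA-depleted, single-end libraries. The authors trimmed reads with cutadapt 1.13, aligned them to mm10 with STAR and deposited raw counts per gene from HTSeq 0.6.1p1; the deposited counts carry no normalization. Groups came from the sample titles, and each library is a separate mouse. edgeR 4.0.16, under R 4.3.3, was used for TMM scaling, the default filter on low counts, a robust quasi-likelihood fit to all 9 libraries and Benjamini-Hochberg adjustment over the 12553 genes that passed. Log2 CPM values carry a prior count of 2. Single members were also compared by exact permutation tests. DESeq2 1.42.0 and limma 3.58.1 were alternatives, as were other scalings, no filter, a replicate block, leaving out Rn45s or each library, and fitting only the groups compared. Total counts set the precision, and floors of 3 counts cover counting error only. Gene models came from GENCODE M21 and start-site windows from RefSeq, both on GRCm38. The members and lists were chosen with earlier results of these data known. The genes named are the 8 members, the listed pathway and reference genes, and the 5 genes most like the family mean. Some genes of the pathway list enter its counts but are not reported here by name.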

Additional observations from a re-analysis of the deposited data

How the results depend on the processing

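Against PBS with HDL NPs, all 8 members kept a log2 fold change above 0 under each of the 20 alternatives. The count of members past the threshold, 0 by edgeR, moved in few of them. For EnzR EVs against PBS it was 6 by limma voom with quality weights (15.9% of all genes), 4 without the libraries over 10% Rn45s (0.0773%) and 1 without the lowest totals (0.0397%). For the mean of both EV groups it was 1 by DESeq2 (0.11%) and again 6 (0.685%), 4 (0.108%) and 1 (0.0397%). For EnzR EVs + HDL NPs against PBS it was 1 by limma voom with quality weights (0.0797%). Leaving out each library in turn gave 0 in every comparison. The last 2 sets of libraries were chosen after seeing the data.

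Oas1c against PBS with EnzR EVs turned to 0.13 without the libraries over 10% Rn45s, and ranged from -0.91 to 0.072 with each library left out. In the mean of both EV groups Oas1c was -0.12 by limma voom with quality weights, and -0.099 to 0.48 with each library left out. Between the EV groups Oasl2 was 8.47e-05 by limma voom and 0.14 by library size only, Oas1a 0.031 by library size only, Oas2 -0.26 without the libraries over 10% Rn45s and -0.041 without the lowest totals, and Oasl1 -0.57 and -0.088. With each library left out these ran from -0.45 to 0.37 for Oas1a, -0.039 to 0.68 for Oas2, -0.078 to 1.07 for Oasl1 and -0.37 to 0.22 for Oasl2. The causes were not tested. Library size alone moved the median of all genes to -0.18 for EnzR EVs against PBS and 0.24 between the EV groups.

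A replicate block turned Oas1a to 0.0074 and Oasl2 to 0.068 between the EV groups, and changed no member's call. With it, 1 gene was called for EnzR EVs against PBS and 2 for the mean of both EV groups. Deviations of same-numbered libraries correlated above 0.1 in 6 of 9 pairs (median r 0.131), including all 3 between PBS and EnzR EVs (0.473, 0.492 and 0.131), and in 6 of 18 pairs with unlike numbers (median -0.125). The pair at 0.473 joined PBS replicate 1 and EnzR EVs replicate 1, the 2 libraries with the highest Rn45s shares and lowest totals. Deviations were taken from each group's mean, so higher values in some pairs push others lower and the medians are not independent. Matched by number, Oas1g, Oas2, Oas3 and Oasl2 were higher with EnzR EVs than with PBS in all 3 pairs. Oas1a, Oas1b, Oas1c and Oasl1 were lower in the pair numbered 1. These directions were not counted over all genes, so no paired result is drawn from them. No source names what a number shares, and 3 same-numbered pairs, all with the HDL NP group, were below 0.1. A pairing was therefore not assumed, which does not show that there was none.

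Depth limits Oas1b, Oas1c and Oas1g in EnzR EVs replicate 1, which rest on 3, 1 and 4 counts. Identical stretches in Oas1a and Oas1g leave their separate values uncertain.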
